A study of Homo sapiens with 9 samples.

Results

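The regions described here were open chromatin sites of MDA-MB-231 cells that had an ATAC-seq peak in both shCtrl libraries and in the DMSO library, and no peak in any of the 2 shEZH2 and 2 shE2F1 libraries. They were chosen by this presence and absence of peaks after the 7 peak lists had been merged at an overlap of 1 bp. Of 114627 merged regions, 58807 had a peak in all 3 baseline libraries, and 841 of these (1.43%) had no peak in the 4 knockdown libraries. The 841 are called lost regions below, and because the rule used the peak calls, the count and the baseline strengths are descriptions without a test.

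MDA-MB-231 is a human triple-negative breast cancer cell line. Cells received lentiviral shRNA for 24 h and puromycin at 2 μg/ml for 72 h, with a control shRNA (shCtrl) or shRNA against EZH2, E2F1 or SUZ12, or were treated with DMSO or with GSK126, an inhibitor of the EZH2 methyltransferase. There were 2 libraries each of shCtrl, shEZH2 and shE2F1 and 1 each of shSUZ12, DMSO and GSK126, so presence in shSUZ12 and GSK126 had no replicate check. The labels do not say whether the replicates came from separate cultures, and the DMSO library is labelled wild type in 1 of its fields. The sources used here give the duration of GSK126 treatment for the study in general and no dose for the ATAC-seq. Each knockdown is represented by a pool of selected cells of 1 line.

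EZH2 is the enzyme of the Polycomb repressive complex PRC2, which methylates histone H3 at lysine 27, a mark of silenced genes, and SUZ12 is a core subunit of the same complex. E2F1 is a transcription factor that drives genes of the cell cycle. Open chromatin in cancer cells is held largely at promoters and at distal enhancers, where AP-1, TEAD and RUNX factors often bind, while CTCF marks sites at which chromatin loops are anchored.

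The sequences at the summits of the strongest lost regions are printed first, as examples of the sites. Each is printed for 100 bp on either side of the summit on the plus strand of GRCh38, in lower case, with capitals at matches to AP-1 (TGACTCA), TEAD (GGAATG), RUNX (TGTGGT) and the CTCF consensus with at most 1 mismatch, on either strand. These 4 were among the strongest when regions were ordered by the lowest percentile of fold enrichment that they had in the 3 baseline libraries.
SMC4 intron, chr3:160413723-160413923: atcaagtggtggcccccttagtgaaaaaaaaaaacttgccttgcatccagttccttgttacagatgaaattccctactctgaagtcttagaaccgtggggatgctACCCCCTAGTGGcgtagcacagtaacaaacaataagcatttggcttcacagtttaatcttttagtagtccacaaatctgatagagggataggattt
MAPKAP1 intron, chr9:125558513-125558713: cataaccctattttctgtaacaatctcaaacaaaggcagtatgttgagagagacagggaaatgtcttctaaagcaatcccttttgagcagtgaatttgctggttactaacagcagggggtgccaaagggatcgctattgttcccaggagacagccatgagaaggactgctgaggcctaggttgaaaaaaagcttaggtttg
downstream of PSMD7, chr16:74329426-74329626: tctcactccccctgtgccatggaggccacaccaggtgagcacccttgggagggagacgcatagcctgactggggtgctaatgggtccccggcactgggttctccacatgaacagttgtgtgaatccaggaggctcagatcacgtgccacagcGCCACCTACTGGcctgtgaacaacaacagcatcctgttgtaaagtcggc
SDK1 intron, chr7:3482541-3482741: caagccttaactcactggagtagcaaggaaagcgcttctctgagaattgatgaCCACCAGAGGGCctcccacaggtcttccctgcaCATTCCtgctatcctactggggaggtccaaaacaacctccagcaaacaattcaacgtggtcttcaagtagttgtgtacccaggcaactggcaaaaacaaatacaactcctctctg

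A CTCF match was present in 3 of these 4 sequences. Over the 12 strongest lost regions, 6 held a CTCF match with at most 1 mismatch, 3 an exact one and 3 an AP-1 match. The shares over all baseline regions were 15.1%, 4.69% and 28.8%. The setting with 1 mismatch was added after the values were seen. Among the sequences printed, the CTCF match began 5 bp after the summit in the SMC4 intron, with 1 mismatch. Exact CTCF matches began 52 bp after the summit downstream of PSMD7 and 47 bp before it in SDK1. A TEAD match in SDK1 began 14 bp before the summit. The MAPKAP1 sequence held none of the 4 motifs.

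Next, 3 of the strongest lost regions at promoters are shown in the same way, since promoters were rare among the lost regions.
GPR183 promoter, chr13:99307342-99307542: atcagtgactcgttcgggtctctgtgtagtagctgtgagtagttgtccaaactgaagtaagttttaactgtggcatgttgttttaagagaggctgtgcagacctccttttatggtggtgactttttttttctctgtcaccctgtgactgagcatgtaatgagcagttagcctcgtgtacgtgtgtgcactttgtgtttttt
RSPH10B2 promoter, chr7:6754123-6754323: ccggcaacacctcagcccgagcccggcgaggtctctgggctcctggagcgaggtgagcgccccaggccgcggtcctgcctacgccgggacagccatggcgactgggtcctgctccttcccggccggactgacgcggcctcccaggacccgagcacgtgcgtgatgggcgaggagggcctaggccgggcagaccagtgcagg
NUP37 and PARPBP promoter, chr12:102121021-102121221: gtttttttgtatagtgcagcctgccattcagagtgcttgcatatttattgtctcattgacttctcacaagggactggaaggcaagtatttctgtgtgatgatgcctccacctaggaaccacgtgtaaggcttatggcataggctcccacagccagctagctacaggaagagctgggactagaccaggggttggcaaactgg

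These 3 promoter sequences held no match to the 4 motifs. A match describes the letters of a window and is not evidence of binding.

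Lost regions were weak peaks in the baseline libraries. Their median fold enrichment over background was 5.31 in shCtrl 1, 5.36 in shCtrl 2 and 5.38 in DMSO, against 8.19, 8.77 and 8.59 over all baseline regions. The values ran from 1.87 to 13.3 in shCtrl 1, from 1.97 to 17.2 in shCtrl 2 and from 2.08 to 14.4 in DMSO. The 3 libraries were thus at the same level at the median, and each held regions far above it.

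The lowest of the 3 baseline −log10 q values of a region was used as its strength. It had a median of 6.91 (range 2.05 to 26.2) over the lost regions and of 21.0 over all baseline regions. When all baseline regions were ordered by it and divided into 5 strength classes of about equal size, 662 of the 841 lost regions lay in class 1, the weakest, 169 in class 2 and 10 in class 3. Classes 4 and 5, of 11761 and 11762 regions, held 0. The lost share was 5.63% of class 1, 1.43% of class 2 and 0.0853% of class 3. The lost regions were also narrow, with a median peak width of 253, 260 and 245 bp in shCtrl 1, shCtrl 2 and DMSO, against 299, 326 and 288 bp in the rest of class 1. The summits of the 2 shCtrl libraries lay a median of 27 bp apart in lost regions and 33 bp apart in the rest of class 1.

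**Figure D1:**
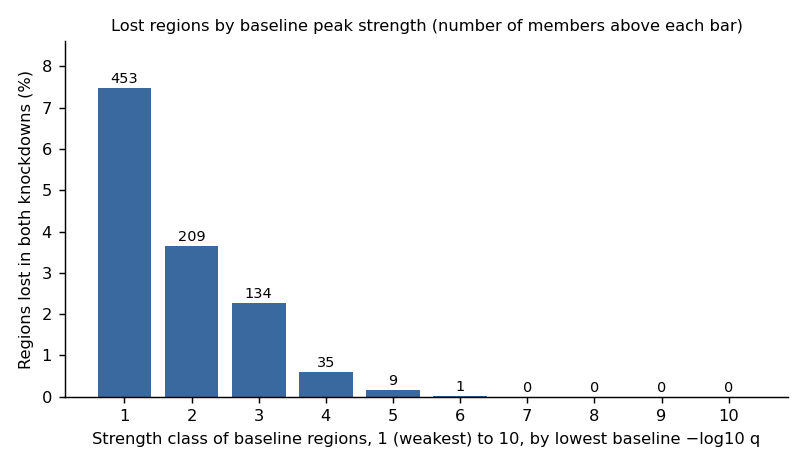
Share of baseline regions lost in both knockdowns (y axis, percent) in 10 classes of baseline regions of about equal size ordered by the lowest baseline −log10 q (x axis, 1 is the weakest), with the number of lost regions above each bar. Class 1 held 453 lost regions and class 6 held 1, with 0 in the classes above it.

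At the edge of the rule, 14 lost regions had a lowest baseline −log10 q below 3, the lowest at 2.05. On the other side, 2330 baseline regions had a peak in exactly 1 of the 4 knockdown libraries. That single peak had a median −log10 q of 9.28, was below 5 in 191 regions and below 3 in 12, and its lowest value was 2.14.

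Depth differed between the libraries. The usual background, in tags per summit window, was 1.79 and 2.08 in shCtrl, 1.79 in DMSO, 1.95 and 1.41 in shEZH2, 1.503 and 2.18 in shE2F1, 2.11 in shSUZ12 and 1.46 in GSK126, and the lists held 58626 to 85812 peaks. The lost regions had a median of 20, 22 and 19 tags at the summit in shCtrl 1, shCtrl 2 and DMSO. The part of depth in the missing peaks was not tested. With each list limited to the 58626 peaks of the shortest one, 439 regions were lost in both knockdowns. The count also rested on single libraries, on some more than on others. It was 2165 without shE2F1 2, 1103 without shE2F1 1, 1427 without shEZH2 1 and 1014 without shEZH2 2. Without shCtrl 1 it was 1791, without shCtrl 2 1423 and without DMSO 2118. Each of these rules asks for fewer libraries by its construction.

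The strongest lost regions lay in introns or between genes. The first, in an intron of SMC4, a subunit of the condensin complex that compacts mitotic chromosomes, spanned chr3:160413671-160413987. Its fold enrichment was 10.6 in shCtrl 1, 10.8 in shCtrl 2, 13.4 in DMSO and 6.43 in shSUZ12, with no peak in GSK126. The shSUZ12 value was below all 3 baseline values. The strongest regions were chosen by their baseline values, so a lower value in a library outside the choice may come from the choice itself. This was not tested, here or for the regions below.

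The second lay in an intron of MAPKAP1, which encodes a subunit of mTOR complex 2, at chr9:125558439-125558783. It had a fold enrichment of 10.0, 10.7 and 9.69 in shCtrl 1, shCtrl 2 and DMSO and of 7.08 in shSUZ12, again without a peak in GSK126. A region 32.7 kb downstream of the start of PSMD7, a proteasome subunit gene, at chr16:74329348-74329704, had 9.35, 10.7 and 9.69 in the baseline libraries and 5.69 in GSK126. It was the one region of the 11 strong ones described here without a peak in shSUZ12.

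A region 26.3 kb upstream of NPBWR1, a neuropeptide receptor gene, had the highest single value, with a fold enrichment of 13.3 in shCtrl 1, 17.2 in shCtrl 2 and 9.33 in DMSO. It kept a peak of 7.72 in both shSUZ12 and GSK126, below the 3 baseline values. Near ACTR2, which encodes a subunit of the actin-nucleating Arp2/3 complex, a region 27.8 kb upstream of the start had 12.5, 8.45 and 10.1 in the baseline libraries, 6.43 in shSUZ12 and 7.72 in GSK126.

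The other 6 of these 11 regions had fold enrichments between 7.14 and 10.4 in the baseline libraries. They lay in introns of SDK1, MTMR3, CABCOCO1, LRRC72, AFF3 and GALNT7. The nearest gene starts of the MTMR3 and GALNT7 regions were those of HORMAD2 and of HMGB2, a DNA-bending protein. All 6 had a peak in shSUZ12, at 5.13 to 9.94, and those of CABCOCO1, AFF3 and GALNT7 also had one in GSK126, at 7.48, 7.72 and 6.71. The CABCOCO1 region was as high in shSUZ12 (9.94) as in DMSO (9.86), its highest baseline value. Its nearest knockdown peak lay 666 bp away, while the nearest knockdown peak of the other 10 was 7940 bp away or more.

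**Figure D2:**
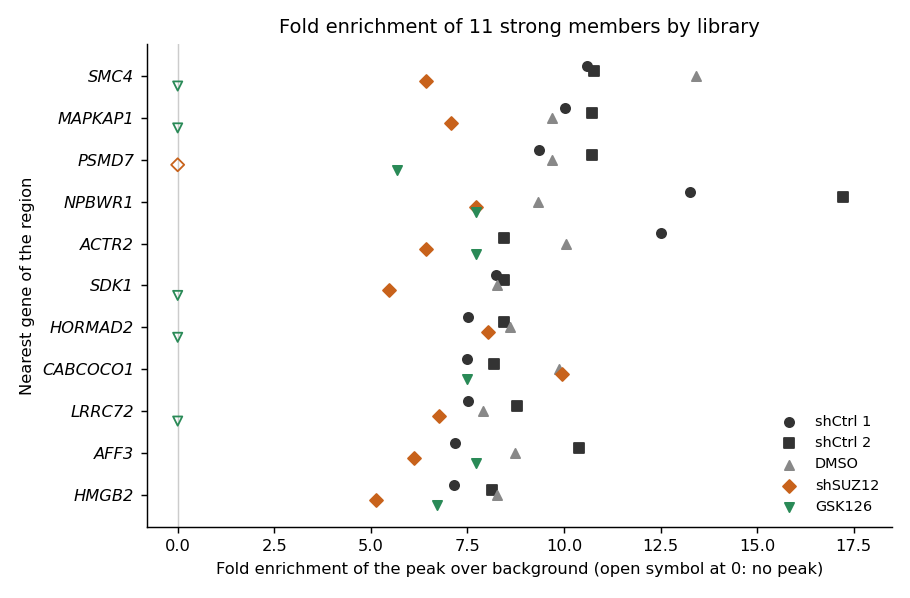
Fold enrichment of the peak over background (x axis) in 11 of the strongest lost regions, named by nearest gene (y axis), in shCtrl 1, shCtrl 2, DMSO, shSUZ12 and GSK126, with 1 symbol for each library and an open symbol at 0 for no peak. The shSUZ12 symbol is open for PSMD7, and the GSK126 symbol is open for SMC4, MAPKAP1, SDK1, HORMAD2 and LRRC72. The regions were chosen by their values in shCtrl and DMSO and not by those in shSUZ12 or GSK126.

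The shSUZ12 and GSK126 libraries were not used to choose the lost regions. A peak was present in shSUZ12 in 428 of the 841 (50.9%, 95% interval 47.5 to 54.3) and in GSK126 in 377 (44.8%, 41.5 to 48.2). Over all baseline regions the shares were 91.5% and 91.7%, that is, 8.52% of baseline regions had no peak in shSUZ12, 8.32% had none in GSK126 and 3.28% had none in either. Among the lost regions 232 had a peak in both libraries and 268 (31.9%, 28.8 to 35.1) in neither. The Wilson intervals here cover counting error over regions only, and each of these libraries stands alone.

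The controls of both libraries, shCtrl and DMSO, entered the rule, so the shares are read beside other baseline regions, for which the same peaks were required. Within class 1, lost regions had a peak in shSUZ12 in 46.4% and in GSK126 in 40.6%, against 72.8% and 71.8% of the other 11100 regions of that class. In class 2 the shares were 66.3% and 59.8% for the 169 lost regions, against 88.7% and 90.2% for the rest. The gap to regions of like strength was therefore present in both libraries and in both classes.

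The shares fell in steps with the number of knockdown libraries that lacked a peak. Baseline regions with a peak in 4, 3, 2, 1 and 0 of the 4 knockdown libraries had a peak in shSUZ12 in 97.7%, 84.4%, 72.4%, 60.8% and 50.9%. The same classes had a peak in GSK126 in 98.3%, 84.7%, 71.8%, 56.7% and 44.8%. Within class 1 the order was the same, from 85.0% to 46.4% in shSUZ12 and from 86.9% to 40.6% in GSK126. Regions lost with shEZH2 only (1817, with a peak in both shE2F1 libraries) kept a peak in 68.1% and 72.0%. Regions lost with shE2F1 only (432, with a peak in both shEZH2 libraries) kept one in 73.6% and 69.0%. Both shares were lowest for the regions lost in both. These groups were themselves formed by how many knockdown libraries had a peak. A region called in fewer libraries may be called less often in any further library, and this part of the order was not tested.

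**Figure D3:**
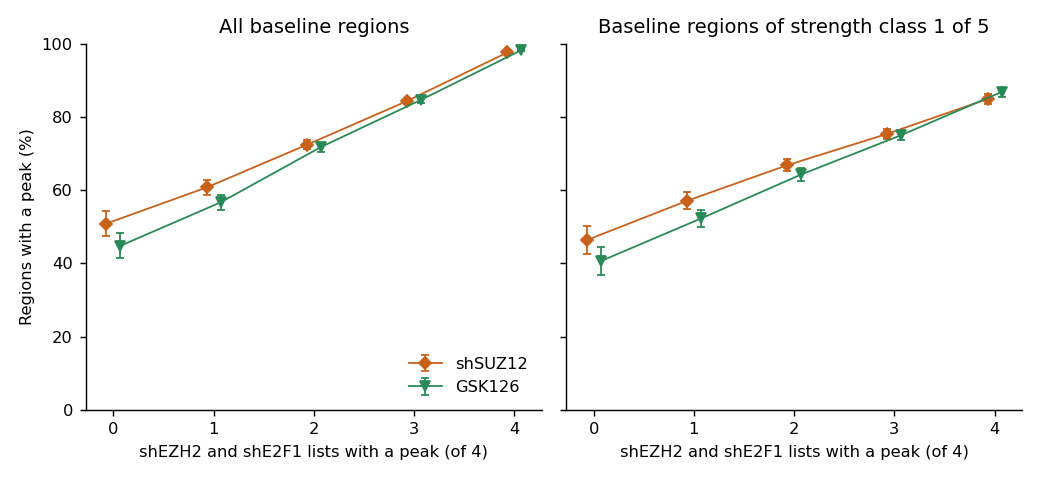
Percent of baseline regions with a peak in shSUZ12 or GSK126 (y axis) by the number of the 4 shEZH2 and shE2F1 libraries with a peak (x axis), for all baseline regions and for class 1, with 95% Wilson intervals. Both lines rise at each step, from 50.9% to 97.7% for shSUZ12 and from 44.8% to 98.3% for GSK126 over all baseline regions.

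Where lost regions did have a peak in shSUZ12 or GSK126, its level was read as the percentile of fold enrichment within its own list. The 428 peaks in shSUZ12 had a median percentile of 28.9, against 31.6 for the middle baseline value of the same regions, and 111 were above all 3 baseline values and 92 below all 3. The 377 peaks in GSK126 had a median of 24.4 against 30.3, with 71 above and 118 below. Over all 841 lost regions the median percentile was 28.4 in shCtrl 1, 28.1 in shCtrl 2 and 24.7 in DMSO, the control of GSK126. The lists held 68756 peaks in GSK126, 74657 in DMSO and 78600 and 81743 in shCtrl. The part of list length in these percentiles was not tested. Median fold enrichments were 5.29 (2.26 to 15.1) in shSUZ12 and 5.69 (2.03 to 16.1) in GSK126.

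The 5 strongest lost regions with a peak in neither library lay in introns of CCDC90B, ORC4, AUH, ADGB and ELL2. ORC4 encodes a subunit of the origin recognition complex and ELL2 a transcription elongation factor. Their fold enrichments ran from 6.45 (ELL2, shCtrl 1) to 8.97 (CCDC90B, DMSO). In the ORC4 intron, at chr2:147937791-147938044, the values were 7.17 in shCtrl 1, 7.80 in shCtrl 2 and 7.18 in DMSO, and the nearest knockdown peak was 51834 bp away. The 5 strongest with a peak in both were the regions near NPBWR1, ACTR2, CABCOCO1, AFF3 and HMGB2 described above.

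Promoters were few among the lost regions. A promoter was taken as 1 kb on either side of the transcription start of a protein-coding gene. Of the lost regions, 40 (4.76%, 3.51 to 6.41) overlapped one, against 20.8% of all baseline regions and 8.05% of the others in class 1. The merged regions had a median length of 331 bp for lost regions, 699 bp for all baseline regions and 497.5 bp for the rest of class 1. A longer region meets a promoter more easily, and the part of length in these shares was not tested. Lost regions lay in introns in 410 cases (48.8%), in exons in 30 and outside protein-coding genes in 401 (47.7%), and introns held 36.6% of all baseline regions and 41.8% of the rest of class 1. The median distance to the nearest start was 31.9 kb, between the 25.4 kb of all baseline regions and the 39.6 kb of the rest of class 1. Over 100 kb from a start lay 200 lost regions (23.8%), against 19.5% of all baseline regions and 24.9% of the rest of class 1. The median GC content around the summit was 48.8%, against 53.2% over all baseline regions and 49.8% in the rest of class 1.

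Of the 40 regions at promoters, 26 had a knockdown peak within 500 bp, as did 124 of the other 801, so many of the promoter regions adjoined a site that was still called. A peak was present in shSUZ12 in 21 of the 40 and in GSK126 in 17.

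The strongest of these regions lay at the promoter of GPR183, an oxysterol receptor that guides lymphocyte migration. It spanned chr13:99307335-99307616, inside an intron of UBAC2. Its fold enrichment was 6.43, 7.97 and 7.38 in shCtrl 1, shCtrl 2 and DMSO, and 9.46 in shSUZ12 and 8.0 in GSK126. The shSUZ12 value was above all 3 baseline values. The GSK126 value was about that of shCtrl 2, and its percentile within its own list was lower, at 51.5 against 56.8. A knockdown peak lay 201 bp away.

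The next in order lay at the promoter of RSPH10B2, a radial spoke gene of cilia, with 4.61, 4.63 and 4.90 at baseline. It had no peak in either other library and was 23511 bp from the nearest knockdown peak. RSPH10B2 has a near-identical copy on the same chromosome, so reads of the copies may not have been told apart. The region at the promoter of MS4A15, of a family of membrane-spanning proteins, had 6.09, 6.56 and 4.67 at baseline. It had 4.72 in shSUZ12 and no peak in GSK126. The region shared by NUP37, a nuclear pore subunit, and PARPBP, an inhibitor of homologous recombination, had 4.52, 4.396 and 5.14 at baseline and no peak in either library.

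The remaining 8 of the 12 strongest lost regions at promoters lay at SV2B, ZNF90, ARFGAP3, TNFRSF13C, REPS2, CLN8, TTC39A and EIF4H. SV2B is a synaptic vesicle protein, ZNF90 a zinc finger gene and ARFGAP3 a regulator of Golgi transport. TNFRSF13C is the BAFF receptor and EIF4H a translation initiation factor. The baseline fold enrichments of these 8 regions ran from 3.92 (EIF4H, shCtrl 1) to 6.52 (SV2B, shCtrl 2). The regions at ZNF90, ARFGAP3, REPS2, CLN8, TTC39A and EIF4H had a knockdown peak within 500 bp. TTC39A was the one of the 8 with a peak in both shSUZ12 (3.88) and GSK126 (3.80).

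Among the weaker lost regions at promoters, the following were picked out for the known roles of their genes after their values were seen. WNT5A, a ligand of non-canonical WNT signalling, had a lost region of 4.51, 3.59 and 3.99 at baseline that had a peak of 4.21 in shSUZ12 and 5.77 in GSK126. S100A4, a calcium-binding protein of motile cells, had one of 2.51, 2.31 and 2.54, with 2.34 in shSUZ12 and no peak in GSK126. CSF2, the gene of the growth factor GM-CSF, had one of 3.76, 2.48 and 3.67 that reached 5.79 in shSUZ12 and 2.48 in GSK126, with a knockdown peak 108 bp away.

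The sequence under the summits was not used by the rule. Of 14 motifs searched within 100 bp of the summit, AP-1 was found in 186 lost regions (22.1%, 19.4 to 25.04), against 28.8% of all baseline regions and 27.3% of the rest of class 1. TEAD was found in 14.6% against 17.2% and 17.6%, and RUNX in 21.3% against 18.4% and 19.2%. Regions lost with shE2F1 only had AP-1 in 20.6% and those lost with shEZH2 only in 32.7%. Within class 1 alone, the lost regions had AP-1 in 21.5% (18.49 to 24.7), TEAD in 14.95% (12.4 to 17.9) and RUNX in 20.4% (17.5 to 23.6), so the share of the rest of class 1 lay outside the interval for AP-1 and inside it for TEAD and RUNX, with no test made.

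CTCF was found in 63 lost regions (7.49%, 5.90 to 9.47), against 4.69% of all baseline regions, 5.26% of the rest of class 1, 3.80% of regions lost with shEZH2 only and 5.32% of regions lost with shE2F1 only. By strength, the lost regions had it in 6.34% (4.73 to 8.46) in class 1, an interval that held the 5.26% of the rest of that class, and 11.2% (7.32 to 16.9) of the 169 in class 2, where all baseline regions of that class had 6.38%. With 1 mismatch allowed, a setting added after the values were seen, the shares were 20.3% (17.8 to 23.2) of lost regions, 28.4% (22.1 to 35.6) of those in class 2 and 34 of the 100 strongest. The same setting gave 15.1% of all baseline regions, 19.8% of those in class 2, 12.2% of regions lost with shEZH2 only and 21.5% of regions lost with shE2F1 only.

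Lost regions with an exact CTCF match had a peak in shSUZ12 in 41 of 63 (65.1%, 52.8 to 75.7) and in GSK126 in 23 (36.5%, 25.7 to 48.9). Without a match the shares were 49.7% and 45.5%. With 1 mismatch allowed, 107 of 171 lost regions with a match (62.6%, 55.1 to 69.5) had a peak in shSUZ12 and 65 (38.0%, 31.1 to 45.5) in GSK126. In the rest of class 1, regions with an exact match had a peak in 76.7% and 70.5%. Lost regions with an AP-1 match had a peak in 45.7% and 43.0%. GSK126 was the shallower of these 2 libraries, and the part of depth in this difference was not tested.

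Motifs of GC-rich promoters came next. GGGCGG, bound by SP and KLF factors, was found in 9.27% of lost regions against 23.5% of all baseline regions and 12.05% of the rest of class 1. CCGGAAG of ETS factors was found in 1.55% against 4.63% and 1.43%, and CACGTG of bHLH factors in 3.09% against 4.58% and 3.43%. The E2F letters, TTTGGCGC or TTTCCCGC, were found in 6 lost regions (0.713%, 0.327 to 1.55) against 0.816% of all baseline regions and 0.550% of the rest of class 1.

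The remaining motifs were infrequent or, apart from that of FOX, near the background. AGATAA of GATA factors was found in 8.68% of lost regions, against 7.46% of all baseline regions and 9.29% of the rest of class 1. TGTTTAC of FOX factors was found in 4.28% (3.11 to 5.87) against 3.00% and 3.08%, both just below that interval, with no test made. The p53 motif was found in 5.59% against 5.09% and 5.28%. GGGANTTCC of NF-kB was found in 5 lost regions, TTGCGCAA of CEBP in 1 and the NRF1 motif in 0, where all baseline regions had 1.33%, 0.0918% and 0.500%.

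**Figure D4:**
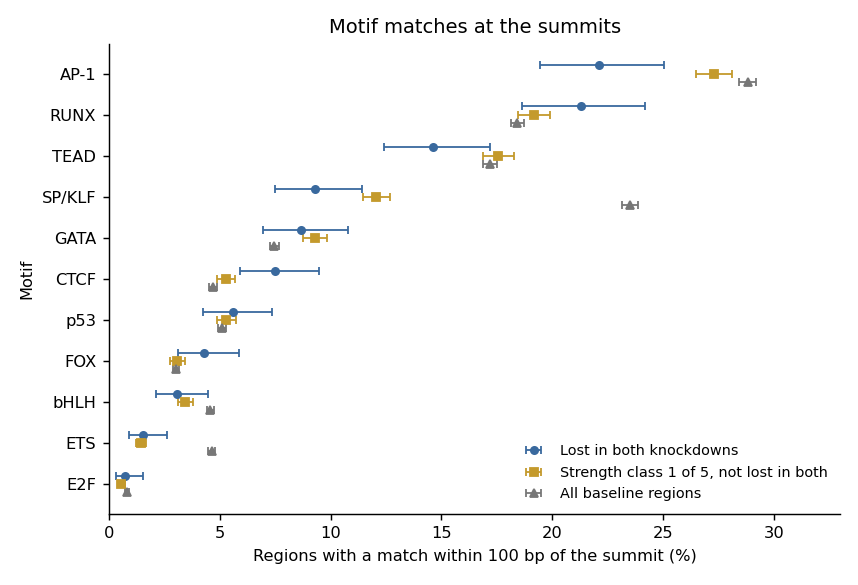
Percent of regions with a motif match within 100 bp of the summit (x axis) for 11 motifs (y axis) in lost regions, the rest of class 1 and all baseline regions, with 95% Wilson intervals. The CTCF point of the lost regions (7.49%) lies above those of both other sets (5.26% and 4.69%), while the lost regions of class 1 alone, not plotted, had 6.34% (4.73 to 8.46), and the AP-1 point (22.1%) below both (27.3% and 28.8%).

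Lost regions were seldom next to each other among the baseline regions. The nearest baseline region was also lost for 5 of the 841 (0.595%, 0.254 to 1.38), against 1.51% of all baseline regions. Of the lost regions, 833 stood alone among their baseline neighbours and 4 pairs were consecutive. Other baseline regions were near, with one within 2 kb for 25.7% of lost regions and 20.3% of all baseline regions. The nearest peak of any knockdown library lay a median of 3.73 kb from a lost region, and within 500 bp for 150 of them (17.8%).

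The 4 pairs lay in CCDC88C on chromosome 14, beside PLEKHG6 and around KRT81 on chromosome 12 and in ADGB on chromosome 6. The CCDC88C pair, in a gene for a Wnt signalling protein, covered 1.05 kb with summits 884 and 1686 bp downstream of the start, with fold enrichments of 2.95 to 4.28 at baseline and no peak in shSUZ12 or GSK126. The KRT81 pair, beside hair keratin genes of high mutual similarity, had 3.46 to 5.99 at baseline and 3.42 and 4.98 in shSUZ12, and no peak in GSK126.

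In windows of 1 Mb, 561 held 1 lost region, 101 held 2, 18 held 3 and 6 held 4, while 1893 windows with baseline regions held 0. Grouping at this scale was not tested. The 5 windows with the highest shares among those with 4 were on chromosomes 2, 4, 20, 9 and 19. They held 35, 44, 45, 51 and 53 baseline regions, so lost regions made up 7.55% to 11.4% of each. The chromosome 2 window lay around UPP2, DAPL1 and TANC1 and the chromosome 20 window around ANKEF1, MKKS, SLX4IP and JAG1, the last a Notch ligand.

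By chromosome, the lost share ran from 1.00% (0.643 to 1.56) on chromosome 14 to 2.33% (1.60 to 3.39) on chromosome 18, with 2.23% (1.51 to 3.27) on chromosome 13 and 1.90% (1.45 to 2.48) on chromosome 12. Chromosomes 18 and 13 also had the largest parts of their regions in class 1, 25.2% and 24.4%. Chromosome 22 had 23.4% there and a lost share of 1.13%. Within class 1 alone, the lost share was 6.76% on chromosome 18, 8.03% on 13 and 6.84% on 12, against 5.63% over all chromosomes. All chromosomes were looked at and no test was made. Chromosome copy number was not measured here.

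**Figure D5:**
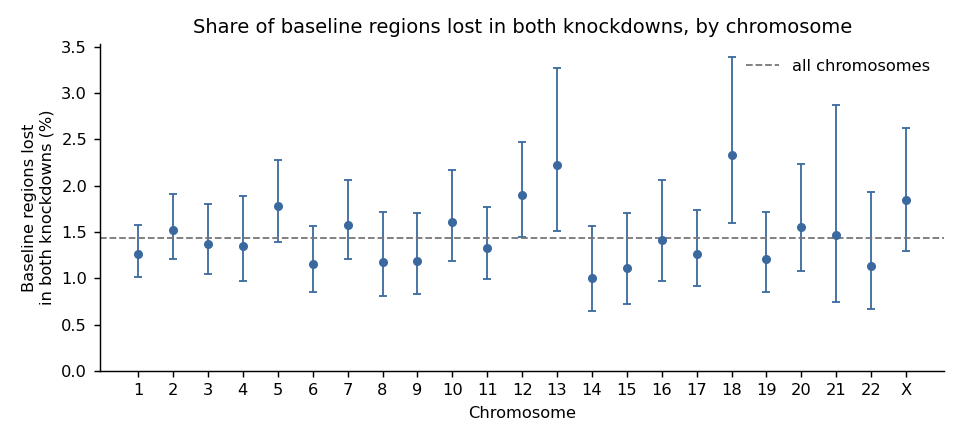
Percent of baseline regions lost in both knockdowns (y axis) on each chromosome (x axis) with 95% Wilson intervals, and the value over all chromosomes as a dashed line at 1.43%. Chromosome 14 is lowest at 1.00% and chromosome 18 highest at 2.33%, and the intervals of 18, 13 and 12 lie above the line.

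The 841 regions had 807 different nearest genes. Of these genes, 776 had 1 lost region, 28 had 2 and 3 had 3, namely SARDH, AFF3 and DUSP10. SARDH, an enzyme of sarcosine breakdown, had 3 of its 10 baseline regions lost, at baseline fold enrichments of 4.14 to 7.49, and 1 of the 3 had a peak in shSUZ12 and 0 in GSK126. AFF3, a protein of the super elongation complex family, had 3 of 14, at 4.66 to 10.4, with a peak in shSUZ12 in 2 and in GSK126 in all 3. DUSP10, a phosphatase that acts on JNK and p38, had 3 of 25, at 3.81 to 7.89, with 2 and 1.

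Of the 28 genes with 2 lost regions, the 7 with the highest lost share were KRT81 of 2 baseline regions, ADGB of 4, CCDC88C of 5, DAPL1 and ENSG00000250803 of 6, BCL6 of 7 and MTHFD1L of 8, which was tied with PTPN3 and TXK. BCL6 is a transcriptional repressor and MTHFD1L a mitochondrial enzyme of one-carbon metabolism. Both BCL6 regions lay upstream of the gene, with fold enrichments of 3.55 to 6.82 at baseline, and had peaks in GSK126 (6.41 and 4.59) and none in shSUZ12. Both MTHFD1L regions, at 5.38 to 9.74, had peaks in shSUZ12 (7.43 and 6.11) and none in GSK126. The nearest start says only where a region lies and not which gene it acts on.

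In 10 gene lists, each had 1 to 4 lost regions, 0.439% to 2.41% of the baseline regions nearest to its genes, around the 1.43% of all baseline regions. Cell cycle and mitosis had 1 of 135 (0.741%), a region 228 kb upstream of E2F7, an atypical E2F repressor, with 5.73, 4.87 and 4.67 at baseline, 4.83 in shSUZ12 and 5.28 in GSK126. All 37 genes of that list had a promoter region in the 3 baseline libraries, and 0 of the 37 had a lost promoter region. Of all 12235 baseline regions at promoters, 40 were lost. PRC2 subunits had 1 of 85 (1.18%), 1325 bp inside MTF2, an accessory subunit, with 6.02, 4.31 and 5.25 at baseline, 4.08 in shSUZ12 and 4.32 in GSK126.

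The AP-1 family had 2 of 102 (1.96%), both near JUN, a core AP-1 subunit, one 14.6 kb downstream of its start and one 90.9 kb upstream. The first had 6.33, 5.87 and 6.32 at baseline, 4.95 in shSUZ12 and no peak in GSK126. The second had 6.09, 8.45 and 5.02 at baseline, 6.11 in shSUZ12 and 6.90 in GSK126. NF-kB cytokines and chemokines had 2 of 104 (1.92%), the CSF2 promoter region above and one 62.7 kb from LIF, a cytokine of the interleukin-6 family, and CSF2 was the only gene of the 10 lists with a lost promoter region.

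Epithelial and luminal identity had 4 of 166 (2.41%, 0.941 to 6.03), among them 1 each nearest to GATA3 and TFAP2A, luminal transcription factors, and GRHL1, an epithelial regulator. The GATA3 region lay 350 kb from its start, with 5.15, 5.88 and 7.00 at baseline, 6.11 in shSUZ12 and 4.85 in GSK126. Mesenchymal state and invasion had 4 of 308 (1.30%), among them 1 each nearest to TGFBR2, FN1 and SNAI1. The region 6.25 kb upstream of SNAI1, a repressor of epithelial genes, had 4.56, 4.80 and 4.62 at baseline and no peak in either library.

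The YAP and TEAD list had 2 of 177 (1.13%), in TEAD1 and near F3. Developmental transcription factors had 3 of 286 (1.05%), near GATA4, SIX2 and SOX9. Cell death had 1 of 116 (0.862%), near FAS, and receptor tyrosine kinases and ligands had 1 of 228 (0.439%), in FLT1. The 95% interval of every list held 1.43%.

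The promoters of EZH2, E2F1, SUZ12, CCNB1 and RRM2 had a peak in all 9 libraries, and a peak list does not measure whether the targeted RNA was depleted. As a check of the labelled line, the promoters of the mesenchymal markers VIM, CD44, ZEB1 and AXL had a peak in all 9 libraries and that of GATA3 in 0, while those of the luminal or epithelial genes EPCAM, ESR1, CDH1, ESRP1 and PGR had one in 9, 8, 8, 8 and 7. Promoter peaks therefore did not set luminal genes apart from mesenchymal ones.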

How the data were processed

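ATAC-seq peak lists of 9 MDA-MB-231 libraries were used, grouped by their labels. The authors aligned the reads with Bowtie2 ('-k 4', end to end), so multi-mapping reads could be reported more than once, and shifted them for the Tn5 cutting position (by 4 and 5 bp). The ATAC-seq methods name no peak caller (MACS2 is named for the ChIP-seq of the study). Coordinates are GRCh38 (hg38), from the submitters' processing notes, and 0 peaks ran past a chromosome end.

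The deposited lists hold, for each peak, a score, which was not used further, the fold enrichment (a ratio of the peak to its background), and the −log10 of p and of q. Read counts were not used here. From fold enrichment and −log10 p, the tag count of each summit and its background could be solved for, which worked for 100% of peaks with a −log10 p below 150 (to within 0.002), and the most frequent background stood for depth.

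Lists were merged at 1 bp, and presence meant any overlapping peak. Strength in a library was the percentile of fold enrichment in its own list. Genes were the 20033 protein-coding genes of GENCODE v44, each with the start of its canonical transcript. All sequences were read from the GRCh38 reference. The steps were tested on simulated data with Python 3.11.15, pandas 2.3.3 and scipy 1.17.1. Shares have 95% Wilson intervals, and no test was made, since presence chose the members. Regions are not replicates.

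The members, motifs and gene lists were chosen with earlier results of these data known. The regions named were the 12 strongest by their lowest baseline percentile, the 12 strongest at promoters, the 5 strongest with a peak in neither and in both of shSUZ12 and GSK126, the 10 genes with most lost regions, the longest runs and fullest 1 Mb windows, and up to 3 genes of each list. Of these, 1 of the 12 strongest regions and some sequences are not reported here.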

Additional observations from a re-analysis of the deposited data

How the results depend on the processing

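The count of 841 lost regions stayed within 1.5 times under a −log10 q of at least 5 in every list or in the baseline lists only, a 25% overlap, windows of 250 bp around summits, a 500 bp margin to knockdown peaks, and a merge of all 9 lists (659 to 864). With lists of equal length it was 439, and the shares with a peak in shSUZ12 and GSK126 were 62.4% and 57.6%. Without the DMSO list the count was 2118 and these shares 38.4% and 28.8%. Leaving out 1 replicate of shCtrl, shEZH2 or shE2F1 at a time gave 1014 to 2165 regions, 41.4% to 56.998% with a peak in shSUZ12, 36.6% to 53.3% in GSK126, 4.34% to 6.59% at a promoter and 20.8% to 25.3% with an AP-1 motif. The promoter share was 2.02% with the 500 bp margin and 7.25% with promoters of 2 kb on each side. The AP-1 share was 16.8% in a window of 50 bp on each side of the summit, and the CTCF share 20.3% with 1 mismatch, an alternative added after the data were seen. The fewer or shorter lists of these settings change the rule by their construction. The causes of the changed shares were not tested. No paired analysis was possible because the results come from no test.

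Presence of a peak is a coarse measure, and with a single library of shSUZ12, DMSO and GSK126 no spread between replicates is known for them. Libraries differ in depth, and its part in which weak peaks were called was not tested. A missing peak says that none was called at this depth and not that the site was closed.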
